A study of Homo sapiens with 6 samples.

Results

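Tropomyosins are the coiled-coil proteins that lie end to end along the actin filament, and they decide which myosins, severing proteins and crosslinkers can reach it. In human cells they are made by 4 genes, TPM1, TPM2, TPM3 and TPM4, out of 60612 genes in the expression tables. The 4 were chosen by their gene family, and the family was selected on the measured fold change of TPM4, which was among the lowest of any protein-coding gene when SNORA28 was overexpressed. The values of the LV-SNORA28 against LV-NC contrast are therefore given for the tropomyosins as a description, with no test.

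RNA was sequenced from cells of HCT116, a human colorectal carcinoma line in long use. Cells were infected for 72 h with the lentiviral control LV-NC (3 libraries) or with LV-SNORA28, which carries the small nucleolar RNA SNORA28 (3 libraries). The methods name a GV235 vector for the SNORA28 lentivirus, and puromycin selection is described for stably overexpressing cells but not stated for these libraries. SNORA28 is an H/ACA small nucleolar RNA, a class that guides pseudouridylation of other RNAs. Libraries were poly(A)-selected, a limit for small nucleolar RNAs, and the sources used here do not say that the libraries of a group came from separate cultures, so the p-values below measure only the spread between these libraries.

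Each table gave FPKM, a fragment count scaled to the mapped total of the library and to transcript length, which can be compared between genes. SNORA28, the overexpressed gene, was listed at 0.92, 0 and 0.64 FPKM under LV-NC against 15.01, 13.66 and 15.2 FPKM in LV-SNORA28, as the labels imply. Genes above 0 numbered 24231 to 25771 per library. Mitochondrially encoded genes took 42.7% to 47.7% of all FPKM in LV-NC and 35.9% to 38.3% in LV-SNORA28, so the groups did not overlap in this share. The epithelial identity of the line was visible in 7 of 8 markers above the filter, led by KRT19, a simple-epithelium keratin, at 357.67 to 411.55 FPKM. VIL1, the villin of the intestinal brush border, was at 0.04 FPKM or below.

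Each tropomyosin gene makes long and short isoforms from separate promoters and alternative exons. The long forms are best known from muscle thin filaments, where troponin sits on them. The short forms are known from the stress fibres, cell cortex and junctions of non-muscle cells, and TPM4 is known mainly for a short form. Because the tables give 1 value per gene, isoforms of a gene could not be separated.

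On GRCh38, TPM1 (ENSG00000140416) lies on chromosome 15 from 63042620 to 63071915 on the plus strand. TPM2 (ENSG00000198467) lies on chromosome 9 from 35681992 to 35690056 on the minus strand. TPM3 (ENSG00000143549) lies on chromosome 1 from 154155308 to 154194648 on the minus strand. TPM4 (ENSG00000167460) lies on chromosome 19 from 16067021 to 16103002 on the plus strand. GENCODE lists 39 transcripts for TPM1, 10 for TPM2, 27 for TPM3 and 35 for TPM4. In the representative transcript of each gene the coding sequence had 284 codons in TPM1 and in TPM2, 285 in TPM3 and 248 in TPM4. The representative transcript of TPM4 was thus the shortest. Its coding sequence had 74.1% to 75.5% identical bases to those of the other members, whereas TPM1, TPM2 and TPM3 shared 79.0% to 80.2% with each other. For TPM4, coding sequences of unlike length were compared, so these values describe the representative transcripts and not all isoforms of the genes.

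RefSeq gives TPM4 more than 1 start, and the letters before 2 of them are shown because the FPKM of TPM4 sums transcripts from all of them. Sequences are from the RefSeq table on GRCh38.p14, plus strand, 5′ to 3′, and each holds the 250 bases before the start. The upstream start is at position 16067538 and its window is chr19:16067288-16067537. The downstream start shown is at position 16076495 and its window is chr19:16076245-16076494. Capitals mark a CArG box, the element known to be bound by serum response factor.
TPM4 upstream start: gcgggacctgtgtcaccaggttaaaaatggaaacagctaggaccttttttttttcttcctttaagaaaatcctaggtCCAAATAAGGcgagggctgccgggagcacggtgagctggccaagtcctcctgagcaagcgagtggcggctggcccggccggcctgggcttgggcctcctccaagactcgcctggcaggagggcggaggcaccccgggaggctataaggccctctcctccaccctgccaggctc
TPM4 downstream start: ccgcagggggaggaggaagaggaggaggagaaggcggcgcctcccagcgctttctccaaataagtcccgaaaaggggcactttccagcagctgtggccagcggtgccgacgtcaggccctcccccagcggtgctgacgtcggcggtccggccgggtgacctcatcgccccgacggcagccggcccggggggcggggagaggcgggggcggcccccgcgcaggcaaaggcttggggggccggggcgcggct
A CArG box was searched on both strands of the full windows of 300 bases, and it was present in 454 of 35116 windows of all genes (1.29%). Among the 8 windows of the tropomyosin genes it was present only in that of the upstream TPM4 start, at position -173, as CCAAATAAGG. The GC box GGGCGG was present in all 8 windows, and in 45.0% of the windows of all genes. The motifs were chosen after the sequences were seen, and a match is a description of letters, not of binding.

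TPM4 carried the change by which the family was chosen. Its level was 27.16, 29.04 and 27.52 FPKM under LV-NC against 10.49, 10.85 and 11.69 FPKM in LV-SNORA28. All 3 LV-SNORA28 libraries lay far below all LV-NC libraries, and the members of each group lay close together. The means were 27.9 FPKM ± 0.998 (SD, n = 3) and 11.0 FPKM ± 0.616 (SD, n = 3), a level 2.53-fold lower. The log2 fold change on the log2(FPKM + 1) scale, which understates changes of low genes, was -1.27 (SE 0.06). In a bulk sample fewer cells that express a gene and less RNA per cell cannot be told apart.

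TPM2, known for its long form in muscle, was the most abundant tropomyosin and moved the other way. It was at 60.68, 62.68 and 62.28 FPKM under LV-NC against 76.14, 80.00 and 78.38 FPKM in LV-SNORA28. There was no overlap between the groups, and the lowest LV-SNORA28 library was above the highest LV-NC library. Groups without overlap, as in TPM4 and TPM2, were found in 35.1% of all genes tested. The means were 61.9 FPKM ± 1.06 (SD, n = 3) and 78.2 FPKM ± 1.94 (SD, n = 3), a ratio of 1.26 and a log2 fold change of 0.33 (SE 0.05). Over the 12076 genes tested, the median of this measure was itself 0.09.

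TPM3, whose short forms are found in most non-muscle cells, was at 13.06, 13.61 and 15.30 FPKM under LV-NC against 12.39, 13.33 and 13.80 FPKM in LV-SNORA28. The groups overlapped, and the log2 fold change of -0.08 (SE 0.08) was no larger than its error. TPM1, a gene best known from muscle and often reduced in carcinoma cells, was nearly silent by comparison. It was at 1.10, 1.12 and 1.67 FPKM under LV-NC against 1.72, 1.64 and 1.63 FPKM in LV-SNORA28. Again the groups overlapped, because the third LV-NC library was as high as the LV-SNORA28 libraries. The log2 fold change of TPM1 was 0.22 (SE 0.11) with all libraries and 0.34 without LV-NC replicate 3. A pseudocount of 0.1 in place of 1 gave 0.36.

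**Figure D1:**
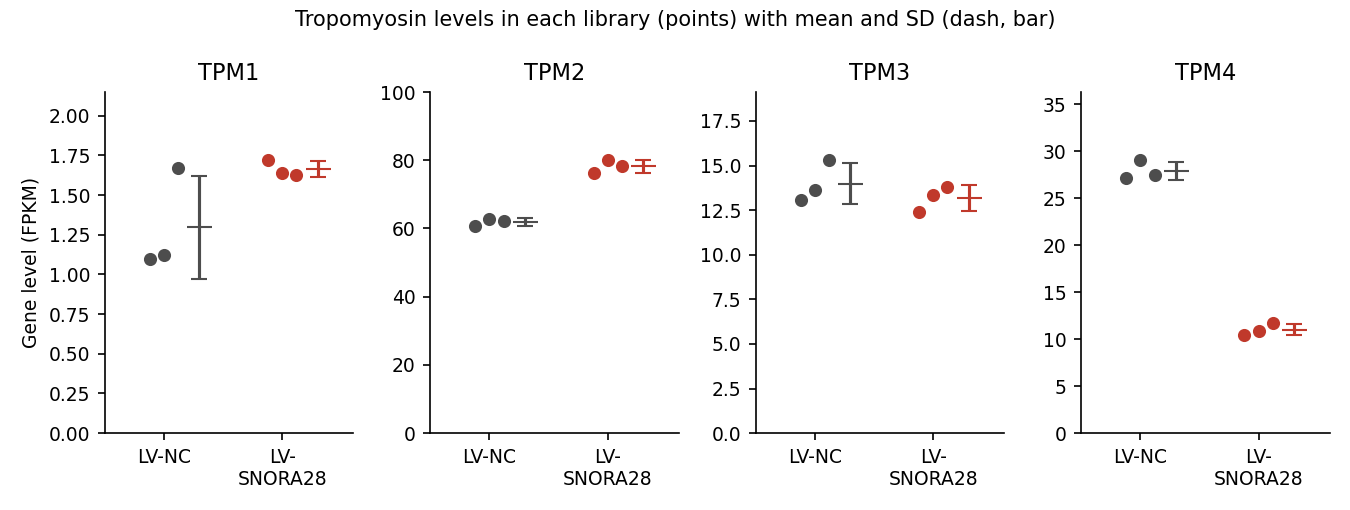
FPKM of each tropomyosin gene in the 3 LV-NC and 3 LV-SNORA28 libraries, each panel with its own axis from 0, with the points as libraries and the dash and bar as mean and SD (n = 3). TPM4 is at 27.16 to 29.04 in LV-NC and at 10.49 to 11.69 in LV-SNORA28, TPM2 is higher in LV-SNORA28, and TPM1 and TPM3 overlap between groups.

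All 4 genes passed the filter of a mean of at least 1 FPKM, TPM1 with group means of 1.30 and 1.66 FPKM. In LV-NC, TPM2 was above 96.1% of the genes tested, TPM4 above 90.6%, TPM3 above 80.0% and TPM1 above 7.58%. In LV-SNORA28 the order of TPM4 and TPM3 was exchanged, with TPM2 above 96.8% of genes, TPM3 above 77.3%, TPM4 above 72.6% and TPM1 above 11.7%. No neighbours in either order overlapped, since TPM3 ended at 15.30 FPKM in LV-NC where TPM4 began at 27.16 FPKM, and TPM4 ended at 11.69 FPKM in LV-SNORA28 where TPM3 began at 12.39 FPKM. The separation of TPM3 from TPM4 was thus narrow in LV-SNORA28 and wide in LV-NC.

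Among the 10573 protein-coding genes tested, the log2 fold change of TPM4 was the 8th lowest. The 7 genes below it had SEs of 0.838 to 1.07 on the log2 scale, more than 10 times that of TPM4, and included TXNDC5 (-1.49, SE 0.844) and BCL2L2 (-1.30, SE 0.911). The next gene above TPM4 was the unnamed ENSG00000288614 (-1.24, SE 0.583). This place describes the fold change by which the family was chosen and adds no support to it.

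**Figure D2:**
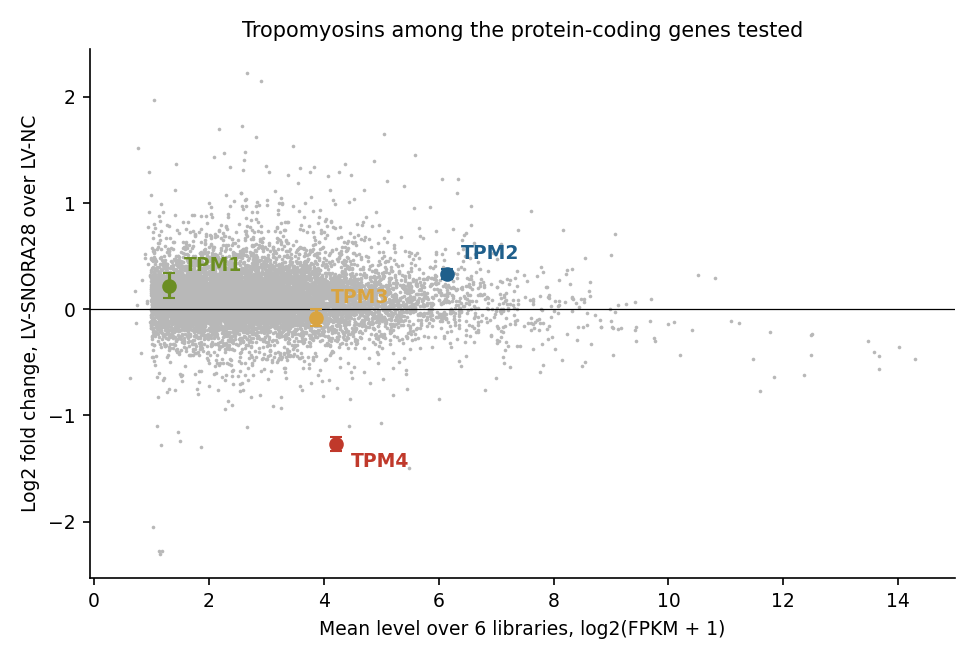
Log2 fold change of LV-SNORA28 over LV-NC against the mean log2(FPKM + 1) over 6 libraries for 10573 protein-coding genes (grey), with the tropomyosins in colour and their SEs as bars. TPM4 lies at -1.27, the fold change by which the family was chosen, while TPM1, TPM2 and TPM3 lie between -0.08 and 0.33.

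The make-up of the tropomyosin FPKM changed while its total hardly moved. The sum over the 4 genes was 102, 106.45 and 106.77 FPKM under LV-NC against 100.74, 105.82 and 105.5 FPKM in LV-SNORA28. These ranges overlapped, with means of 105 ± 2.67 and 104 ± 2.85 (SD, n = 3 each). TPM4 was lower by a mean of 16.9 FPKM, and TPM2 was higher by a mean of 16.3 FPKM.

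TPM4 made up 26.6%, 27.3% and 25.8% of the tropomyosin FPKM in LV-NC and 10.4%, 10.3% and 11.1% in LV-SNORA28. TPM2 made up 59.5%, 58.9% and 58.3% in LV-NC and 75.6%, 75.6% and 74.3% in LV-SNORA28. Neither share overlapped between groups, and as parts of 1 total they are not independent of each other. TPM3 kept 13.3% ± 0.886 in LV-NC and 12.7% ± 0.394 in LV-SNORA28 (SD, n = 3 each), with overlap, and TPM1 stayed at 1.71% or below in every library.

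Within each library, where scaling to the mapped total cancels, the ratio of TPM2 to TPM4 was 2.22 ± 0.0541 in LV-NC and 7.11 ± 0.357 in LV-SNORA28 (SD, n = 3 each). The ratio of TPM3 to TPM4 passed from 0.502 ± 0.0473 to 1.20 ± 0.0276, so TPM3 exceeded TPM4 in every LV-SNORA28 library and in no LV-NC library. The ratio of TPM2 to TPM3 was 4.65, 4.61 and 4.07 in LV-NC and 5.68 to 6.15 in LV-SNORA28. The mitochondrial share of FPKM moved with the groups, and its part in the FPKM differences was measured by scaling to the remaining genes. Scaled to a non-mitochondrial FPKM sum of 1000000, TPM4 was at 144 ± 3.70 in LV-NC and 55.8 ± 3.34 in LV-SNORA28, and the tropomyosin sum was at 542 ± 7.68 and 527 ± 13.3 (SD, n = 3 each), still with overlapping groups for the sum.

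**Figure D3:**
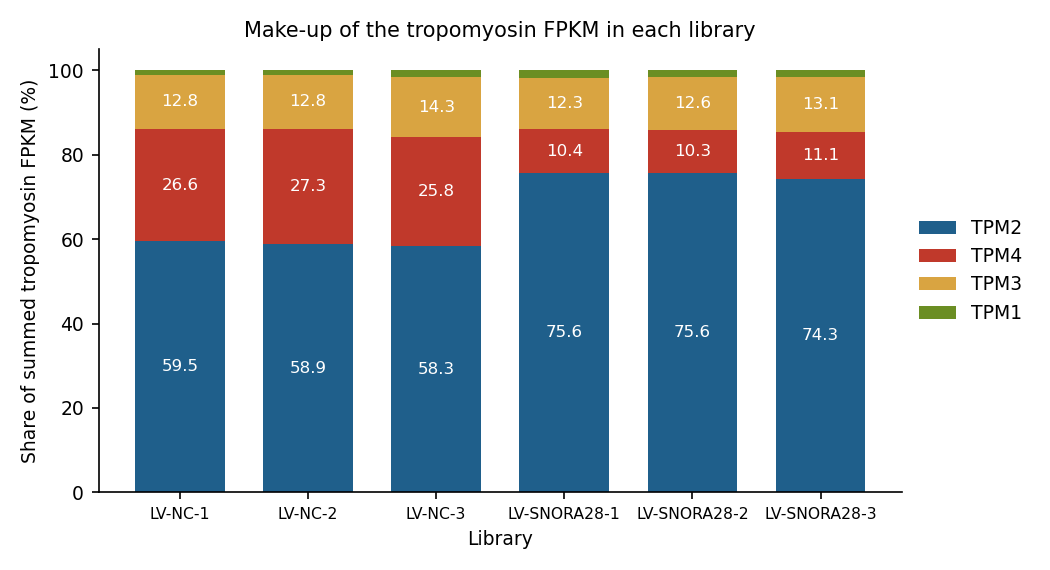
Percent of the summed tropomyosin FPKM taken by each gene in each of the 6 libraries, as stacked bars from 0 to 100%. The TPM4 part is 25.8% to 27.3% in LV-NC and 10.3% to 11.1% in LV-SNORA28, and the TPM2 part is 58.3% to 59.5% and 74.3% to 75.6%.

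Processed pseudogenes of tropomyosins could take reads from their parents, so their values were examined. The tables held 13 such copies, 9 named for TPM3, 3 for TPM4 and 1 for TPM2, and 6 of them were at 0 in every library. The copies of TPM4 together reached only 0.62 to 1.12 FPKM in any library. TPM3P9 and TPM3P5, the only copies with a mean of at least 1 FPKM, were at 1.27 to 2.09 and at 0.66 to 2.02 FPKM and overlapped between groups. Of all stretches of 100 bases in TPM4 transcripts, 0.584% also occurred in a TPM4 copy, and of those in TPM3 transcripts 0.201% occurred in a TPM3 copy. No stretch of that length was shared between any pair of the 4 tropomyosin genes. Their coding sequences had at most 80.2% identical bases, so a shared stretch was unlikely beforehand. Only exact matches were counted, so reads that align with mismatches are not covered.

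Genes that overlap a tropomyosin locus were at very low levels. ENSG00000279198, which overlaps TPM4 on the opposite strand, was at 0.08 to 0.19 FPKM, and TPM1-AS, the antisense RNA of TPM1, was at 0.01 FPKM or below. None of the 5 overlapping genes reached the filter. Neighbours within 100000 bases, a distance chosen after values were seen, were then compared with limma on all 12076 genes with Benjamini-Hochberg adjustment, in which 8.91% of genes had an adjusted p under 0.05. Around TPM4, 5 protein-coding neighbours were listed, 4 were tested and 0 passed. Their log2 fold changes ran from -0.05 to 0.50, and RAB8A, the nearest, a small GTPase of membrane traffic, was at 10.98, 11.64 and 11.73 FPKM under LV-NC against 8.76, 12.41 and 13.20 FPKM in LV-SNORA28. Around TPM2, 1 of 7 tested neighbours passed. This was RGP1, a partner in the exchange factor for RAB6, at 6.60, 4.91 and 6.21 FPKM under LV-NC against 10.55, 9.76 and 10.99 FPKM in LV-SNORA28 (log2 fold change 0.73, SE 0.11, limma adjusted p = 0.0149). TLN1, the talin gene beside TPM2, was at 27.56 to 33.99 FPKM under LV-NC against 27.49 to 30.31 FPKM in LV-SNORA28, and its groups overlapped. None of the 3 tested neighbours of TPM3 or the 2 of TPM1 passed.

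Other proteins of the actin filament were compared to see what the rest of the structure showed. Across all genes tested, 6.81% rose and 2.10% fell with an adjusted p under 0.05 by limma, 822 and 254 genes. After quantile normalization, which moved the median of all genes from 0.09 to -0.00127, the split was 451 and 375. Lists of 83 actin filament genes other than tropomyosins held 65 tested genes. Of these, 4 rose, 0 fell and 61 did not pass, a share called of 6.15% beside 8.91% of all genes. The groups did not overlap in 21 of the 65, beside 35.1% of all genes. The median log2 fold change of the 65 was 0.13, with 48 above 0 and 17 below, beside 0.09 for all genes. When the call was instead a fold change above 1.5 at an unadjusted p below 0.05, which 3.79% of all genes met, 5 of the 65 were called.

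In the lists of tropomodulins, of troponins and of caldesmon with the calponins, no gene was called, beside 8.91% of all genes. The groups did not overlap in 1 of 3, 2 of 3 and 1 of 4 tested genes of these lists, beside 35.1% of all genes. Tropomodulins cap the pointed end by binding tropomyosin. None of the 3 that were tested passed, and the most abundant, TMOD3, was at 13.36, 13.12 and 8.68 FPKM under LV-NC against 12.22, 12.58 and 13.67 FPKM in LV-SNORA28. Among troponins, which regulate tropomyosin in striated muscle, 3 were tested and 0 passed. TNNT1, the slow skeletal troponin T, was at 51.46 to 60.19 FPKM under LV-NC against 58.55 to 64.80 FPKM in LV-SNORA28, with overlap. Caldesmon and the calponins also bind along the filament, and none of the 4 tested passed. CNN3, calponin 3, was at 35.83 to 38.62 FPKM under LV-NC against 37.89 to 41.19 FPKM in LV-SNORA28.

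The actins themselves were level in the cytoplasmic forms. ACTG1, cytoplasmic gamma-actin, was at 617.71 to 742.89 FPKM under LV-NC against 619.08 to 762.56 FPKM in LV-SNORA28, and its groups overlapped. ACTA2, smooth muscle alpha-actin, was the only actin of 4 tested that rose, beside 6.81% of all genes. It was at 2.66, 2.35 and 2.1 FPKM under LV-NC against 3.84, 3.67 and 3.46 FPKM in LV-SNORA28. The log2 fold change here was 0.47 (SE 0.09) with a limma adjusted p of 0.0273. The call for ACTA2 was lost when any library other than LV-NC replicate 1 was left out (limma adjusted p 0.0725 to 0.0958). It was kept without LV-NC replicate 1 (adjusted p 0.0358).

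Nonmuscle myosin II moves on tropomyosin-coated filaments. None of 11 tested genes of its chains and regulators passed, beside 8.91% of all genes. MYL12B, a regulatory light chain, was at 244.11 to 262.94 FPKM under LV-NC against 236.82 to 249.98 FPKM in LV-SNORA28. Actinins, filamins and other crosslinkers gave 0 of 10, with ACTN4, alpha-actinin 4, at 80.62 to 95.85 FPKM under LV-NC against 88.63 to 115.88 FPKM in LV-SNORA28. Formins and the Arp2/3 complex, which start new filaments, gave 0 of 15. Of these, 13 had a log2 fold change above 0, beside 8059 of 12076 genes. The groups did not overlap in 6 of the 15, beside 35.1% of all genes. The summed level of the 17 listed was 292.92 to 313.07 FPKM under LV-NC against 351.10 to 367.22 FPKM in LV-SNORA28. ARPC1A, an Arp2/3 subunit, was at 65.36, 72.88 and 73.86 FPKM under LV-NC against 87.99, 91.38 and 81.77 FPKM in LV-SNORA28. Its groups did not overlap, and the limma adjusted p was 0.0562.

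Proteins that sever filaments or hold monomers gave 2 of 12 called, both higher. Of all genes 8.91% were called, 6.81% higher and 2.10% lower. WDR1, the cofactor of cofilin in filament disassembly, was at 25.00, 23.98 and 27.16 FPKM under LV-NC against 43.09, 42.91 and 37.12 FPKM in LV-SNORA28. Every LV-SNORA28 library was above every LV-NC library, with a log2 fold change of 0.67 (SE 0.08) and an adjusted p by limma of 0.00970. TWF1, twinfilin 1, which binds monomers and caps barbed ends, was at 26.85, 27.97 and 27.71 FPKM under LV-NC against 33.21, 38.65 and 42.21 FPKM in LV-SNORA28 (log2 fold change 0.45, SE 0.09, limma adjusted p = 0.0358). TWF1 lost its call when any library other than LV-SNORA28 replicate 1 was left out (limma adjusted p 0.081 to 0.116). It kept the call without LV-SNORA28 replicate 1 (adjusted p 0.0284) and lost it after quantile normalization (adjusted p 0.0598). TMSB10, thymosin beta 10, a monomer-binding peptide and the most abundant of the list, was at 2330.73 to 2739.69 FPKM under LV-NC against 2176.10 to 2350.79 FPKM in LV-SNORA28, with overlap.

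SRF, serum response factor, binds CArG boxes of many cytoskeletal genes with its MRTF cofactors. It was the 1 gene of its list of 3 that rose, beside 6.81% of all genes. It was at 8.81, 7.30 and 7.89 FPKM under LV-NC against 13.21, 12.59 and 12.29 FPKM in LV-SNORA28. The groups were well apart, with a log2 fold change of 0.61 (SE 0.08) and an adjusted p by limma of 0.0106. WDR1 and SRF kept an adjusted p under 0.05 when each library was left out in turn, at most 0.0423 for WDR1 and 0.0467 for SRF. The CArG box before the upstream TPM4 start is a match of letters, and no binding was measured here.

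**Figure D4:**
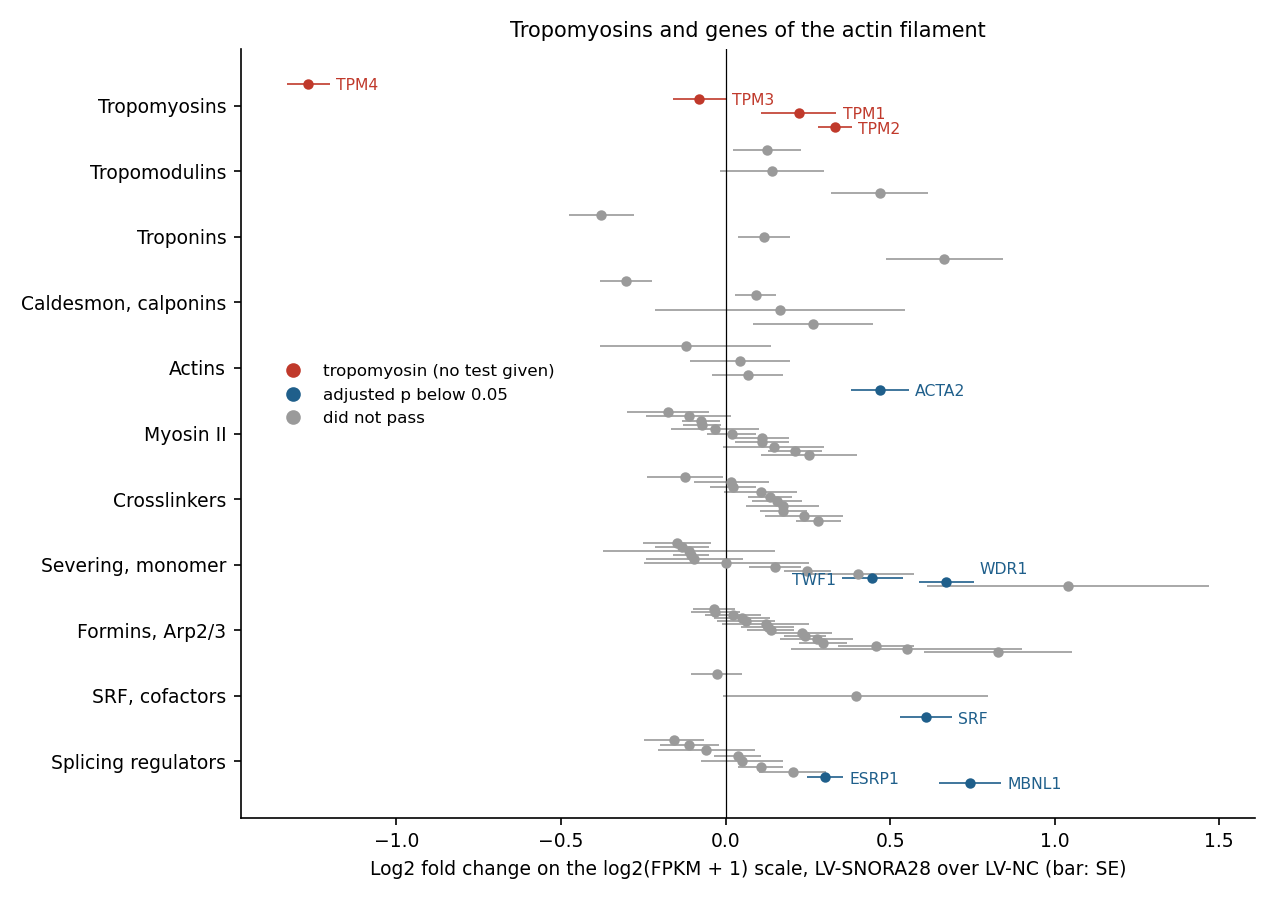
Log2 fold change on the log2(FPKM + 1) scale (points) with SE (bars) for the tropomyosins and for the tested genes of each list. Tropomyosins are red with no test given, genes with a limma adjusted p below 0.05 are blue, all of them to the right of 0, and TPM4 at -1.27 lies left of every other gene drawn.

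Tropomyosin transcripts are a textbook example of alternative splicing, and regulators known for such exons were compared. Of 11 listed, 9 were tested, 2 rose, 0 fell and 7 did not pass, a share called of 22.2% beside 8.91% of all genes. The median log2 fold change was 0.05, beside 0.09 for all genes. MBNL1, a muscleblind protein that binds YGCY elements, was at 9.35, 7.58 and 9.21 FPKM under LV-NC against 14.33, 15.01 and 16.30 FPKM in LV-SNORA28. There was no overlap between the groups, with a log2 fold change of 0.74 (SE 0.10) and an adjusted p by limma of 0.0102, and the call held with each library left out in turn (at most 0.0447). ESRP1, the epithelial splicing regulator and the most abundant of the list, was at 27.36, 26.14 and 25.85 FPKM under LV-NC against 33.61, 32.74 and 32.13 FPKM in LV-SNORA28. The log2 fold change here was 0.30 (SE 0.05) and its limma adjusted p was 0.0253. The call for ESRP1 was lost when any library other than LV-NC replicate 1 was left out (limma adjusted p 0.0723 to 0.0946). It was kept without LV-NC replicate 1 (adjusted p 0.0423) and lost after quantile normalization (adjusted p 0.0988). Isoforms were not measured, so no splicing of a tropomyosin was compared.

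Markers of other kinds of cells that carry tropomyosins in a tumour, muscle and fibroblasts, were mostly below 0.1 FPKM in these libraries. Of 12 muscle markers, 8 were below 0.1 FPKM in every library, and MYOD1 and MYH2 were at 0. DES was at 1.42 to 2.13 FPKM under LV-NC against 1.75 to 2.06 FPKM in LV-SNORA28. MYL2 was at 0.92 to 1.31 FPKM under LV-NC against 0.61 to 1.07 FPKM in LV-SNORA28. TNNT1, the slow skeletal troponin T, at 51.46 FPKM or above, was not in this list. The summed level of the list was 9.41 to 10.8 FPKM under LV-NC against 10.03 to 11.7 FPKM in LV-SNORA28, mostly from SMTN, smoothelin. Of 10 fibroblast markers, 9 were below 0.1 FPKM in every library, with COL1A2, DCN and LUM at 0. The exception was COL1A1, a chain of type I collagen, at 4.46, 3.16 and 3.24 FPKM under LV-NC against 4.04, 3.16 and 3.4 FPKM in LV-SNORA28, with overlap. Their sum was 3.27 to 4.53 FPKM under LV-NC against 3.28 to 4.18 FPKM in LV-SNORA28, with overlap. The 8 epithelial markers summed to 790 to 879 FPKM under LV-NC against 810 to 860 FPKM in LV-SNORA28, also with overlap.

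The genes with a pattern most like that of TPM4 over the 6 libraries were found by the Euclidean distance between centred log2(FPKM + 1) values among 10572 other protein-coding genes, whose median distance was 1.70. The nearest was MAPK14, the stress kinase p38 alpha, at a distance of 0.460. MAPK14 was at 5.90, 5.26 and 6.05 FPKM under LV-NC against 2.58, 2.39 and 2.54 FPKM in LV-SNORA28, a mean level 2.29-fold lower. Then came RAB5C, an early endosome GTPase, at a distance of 0.604, from 42.18 to 51.28 FPKM in LV-NC and from 26.37 to 26.94 FPKM in LV-SNORA28. HIBADH, an enzyme of valine breakdown, followed at 0.629, and was at 14.46 to 16.08 and 8.34 to 8.63 FPKM. EIF4B, a translation initiation factor, was at a distance of 0.639, with 136.46 to 150.97 and 83.01 to 85.69 FPKM. MT-ND6, a mitochondrially encoded subunit of complex I, was at 0.654, with 3840.54 to 4399.67 and 2285.03 to 2542.52 FPKM, and is among the genes of the mitochondrial share that moved with the groups. The measure uses the contrast that chose TPM4, so these likenesses are a description. In none of the 5 was the mean level as far below that of LV-NC as in TPM4, where it was 2.53-fold lower.

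**Figure D5:**
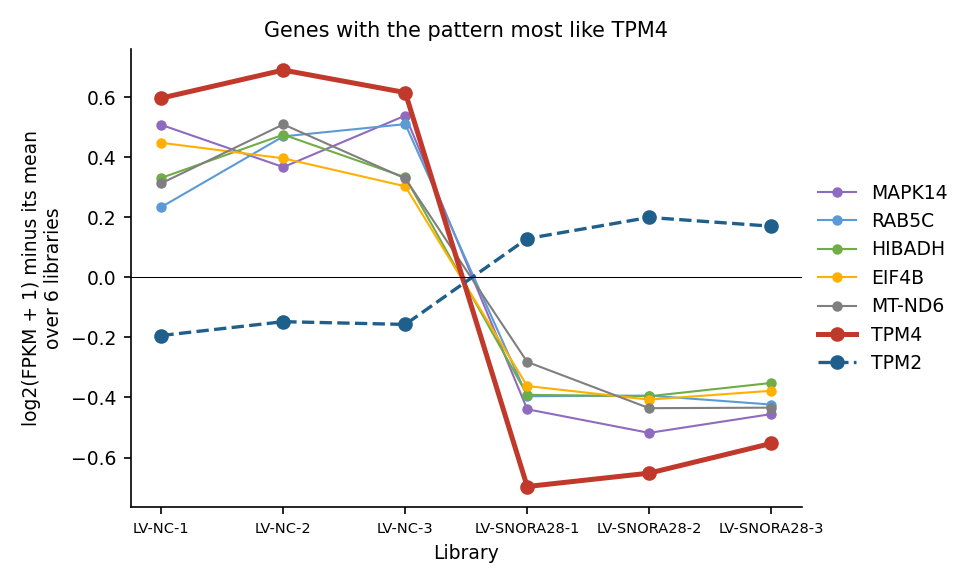
Centred log2(FPKM + 1) in each of the 6 libraries for TPM4 (thick red), the 5 protein-coding genes nearest to it and TPM2 (dashed). All 6 solid lines are above 0 in LV-NC and below 0 in LV-SNORA28, with TPM4 the widest, and TPM2 runs the other way.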

How the data were processed

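RNA from 3 LV-NC and 3 LV-SNORA28 libraries of HCT116 cells was analysed, grouped by sample title. The authors deposited 1 table of FPKM per library for 60612 genes, written with 2 decimals. The submitters' processing notes name cutadapt 1.9, HISAT2 2.2.1, StringTie 2.1.6 and hg38, and the annotation release and filters were not given in the sources used here. Read depth is unknown, so no counting interval was given, and FPKM is relative, so abundant transcripts shift all other values. Symbols for 60401 genes and coordinates came from GENCODE on GRCh38.

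Genes averaging 1 FPKM or more over the libraries (12076) were fitted on the log2(FPKM + 1) scale with limma 3.58.1 in R 4.3.3 (lmFit, eBayes with trend, two-sided, Benjamini-Hochberg). Named genes were the tropomyosins, every called gene and the most abundant gene of each list, copies and overlapping genes, and the 5 genes nearest to TPM4. TXNDC5, BCL2L2, ENSG00000288614, DES, MYL2, the neighbours and the markers at or near 0 were named after their values were seen. The members and lists were chosen with earlier results of these data known. Alternatives were other pseudocounts, filters and scalings, no trend, the replicate number as a block, the threshold of the study and each library left out in turn. Coding identity was counted on Biopython 1.88 alignments.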

Additional observations from a re-analysis of the deposited data

How the results depend on the processing

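TPM4 stayed lower and TPM2 higher in LV-SNORA28 with the pseudocount of 0.1, both other scalings and each library left out, the alternatives under which their fold changes were recomputed. The log2 fold change of TPM4 was -1.33 with a pseudocount of 0.1 and -1.36 after quantile normalization, and -1.31 to -1.24 with each library left out in turn. That of TPM2 was 0.25 after quantile normalization. Under these alternatives TPM1 and TPM3 kept their signs, at 0.14 to 0.36 and -0.16 to -0.02. The difference in the TPM4 share of tropomyosin FPKM was -16.4 to -15.6 percentage points with each library left out.

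The count of genes called was 397 of 32761 (1.21%) with no filter and 458 (3.79%) by the threshold of the study, beside 1076 (8.91%). It was 826 (6.84%) after quantile normalization. With each library left out it was 278 to 629 (2.30% to 5.22%), the lowest without LV-SNORA28 replicate 2. Every library moved this count by over 1.5 times. Called actin filament genes numbered 2 of 83 with no filter. With a mean of at least 5 FPKM they numbered 8 of 53, where 910 of all 6241 genes (14.6%) were called. With each library left out they numbered 2 to 3, with 2 in the absence of LV-NC replicate 2, LV-NC replicate 3 or LV-SNORA28 replicate 2. Called splicing regulators numbered 1 after quantile normalization, 1 by the threshold of the study and 1 to 2 with each library left out. No pairing by replicate number was visible, with deviations of same-numbered libraries correlated at -0.0441, 0.0914 and 0.00983. These values cannot exclude a weak pairing, and the labels do not say whether the samples were paired. With the replicate block 510 genes (4.22% of all genes), 4 actin filament genes and 1 splicing regulator were called. Of these 4, 3 were also called without the block, TWF1 (adjusted p 0.0579 in limma) was lost and PFN2, a profilin named after its values were seen, was gained. ESRP1 was the splicing regulator lost (0.0548). Unknown read depth limits the reading of low values such as TPM1. The cause of these changes in counts was not tested.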
